A study of Mus musculus with 12 samples.

Results

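The genes described here are 10 members of the hypoxia-inducible factor (HIF) system: the oxygen-regulated subunits Hif1a and Epas1 (which encodes HIF-2α), their shared partner Arnt, the regulators Vhl, Egln1, Egln2, Egln3 and Hif1an, and the HIF targets Vegfa and Bnip3. They were chosen by name, and all 10 were found by Ensembl identifier (names from GENCODE, GRCm38) in both count tables, among 32285 identifiers in the table of hematopoietic stem cells (HSCs) and 56980 in that of macrophages. The choice was made with an earlier result in view, namely that Hif1a separated the HSC groups. The HSC comparison of the members is therefore given as a description, without p-values, and the members are tested only in macrophages. RNA came from fetal livers of E14.5 mouse embryos, sorted as CD45+ Lin- cKit+ Sca1+ CD48- CD150+ HSCs (strain given as C57BL/6) or as CD169+ macrophages (strain not given in the labels). Every embryo was Jag1 f/f, that is, homozygous for a floxed allele of the Notch ligand gene Jag1, and either lacked the Vav-Cre transgene (Cre negative) or carried it (Cre positive). The labels call the Cre negative HSC libraries WT, although they carry the floxed allele too. The 4 groups had 3 libraries each, and the labels name no treatment.

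HIF is a dimer of an alpha subunit (HIF-1α or HIF-2α) and the stable partner ARNT. In the presence of oxygen, the prolyl hydroxylases encoded by Egln1, Egln2 and Egln3 mark the alpha subunits for recognition by the VHL ubiquitin ligase and for degradation, and the asparagine hydroxylase encoded by Hif1an blocks their contact with coactivators. When oxygen is low the alpha subunits persist and switch on genes such as Vegfa, an endothelial growth factor, and Bnip3, a receptor for mitophagy. Much of this control acts on the protein, which RNA counts do not measure. Hif1a is known for a role in the metabolism and quiescence of HSCs, and Epas1 is a gene of endothelium.

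Depth was 51982064 to 77463770 counted reads in HSC libraries, 17230019 to 24658205 in Cre negative macrophage libraries, against 2602934 to 5366990 in Cre positive ones, so that depth differed by genotype in the macrophage sort. The targeted gene Jag1 measured 6.52, 6.86 and 1.15 CPM (reads scaled to library size) in Cre negative HSC libraries, against 10.5, 0 and 19.4 CPM in the labelled Cre positive ones. Since Jag1 did not separate the HSC groups, these are called the libraries labelled Cre positive throughout, and each HSC direction rests on that label. In macrophages Jag1 measured 51.7, 20.7 and 25.9 CPM in Cre negative, against 0, 10.4 and 6.67 CPM in Cre positive libraries. Which cells of a sort the Jag1 RNA came from was not tested. Both sorts held endothelial RNA: 21 endothelial markers summed to 11850 to 25095 CPM in Cre negative, against 11198 to 15033 CPM in labelled Cre positive HSC libraries, and to 13429 to 22831 and 17135 to 23571 CPM in macrophages, with none of the 21 at 0 throughout a sort. The gate gene Siglec1 (CD169) reached only 15.9 to 115 CPM in macrophage libraries. The HSC gate gene Slamf1 (CD150) measured 8.02, 16.9 and 74.3 CPM in Cre negative HSC libraries. In the labelled Cre positive ones it measured 34.1, 67.7 and 23.9 CPM. Kit measured 76.5, 114 and 183 CPM, against 126, 162 and 40.03 CPM. HSC markers summed to 1212 to 3003 and 1820 to 2434 CPM, below the endothelial sums of the same libraries. Levels given for HSCs or macrophages are those of the sorted libraries, and the share from the named cells was not tested. Macrophage Cre negative replicate 1 stood apart, with 21.9 CPM of the macrophage gene Adgre1 and 1678 CPM of the liver gene Alb, where the other Cre negative libraries held 368 to 396 CPM and 75.8 to 90.5 CPM. In these bulk libraries, fewer cells of a type and less RNA per cell cannot be told apart. The labels do not say whether each library was made from a different embryo, so that the spread between them may be technical.

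Levels of the members were compared with one another only per length, as CPM per kb of annotated exons, from 2.27 kb for Bnip3 to 8.01 kb for Arnt. In Cre negative HSCs the order was led by Egln2 at 46.8 ± 9.43 CPM per kb (SD, n = 3), whose libraries (37.5 to 56.4) all lay above those of the next gene. Hif1a followed at 21.8 ± 1.12 CPM per kb, just above Egln1 at 16.9 ± 3.11, and the range of Egln1 (13.9 to 20.1) did not reach that of Hif1a (20.6 to 22.9). Vhl came next at 15.1 ± 0.442 CPM per kb, within the range of Egln1. Egln3 (9.25), Bnip3 (9.02), Epas1 (7.32), Arnt (5.86), Hif1an (4.54) and Vegfa (3.75) formed the lower part, in which each gene overlapped its neighbour in the order. In HSC libraries labelled Cre positive, Egln2 still had the highest mean at 31.1 ± 17.9 CPM per kb, but its lowest library (18.2) lay within the range of Egln1 (6.33 to 20.5), and Hif1a stood in the fifth place at 8.74 ± 0.725.

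Cre negative macrophage libraries had another leader. Epas1 measured 65.4 ± 10.5 CPM per kb (SD, n = 3), above Hif1a at 20.6 ± 3.27 in each library. Egln1 (14.998 ± 7.78), Egln2 (14.98 ± 6.30), Arnt (11.8 ± 1.39) and Vegfa (10.1 ± 6.46) followed with overlapping ranges, and Egln3 (6.84), Hif1an (5.85), Vhl (4.94) and Bnip3 (4.08) were lowest, each overlapping its neighbour. In Cre positive macrophage libraries Epas1 led again at 101 ± 6.95 CPM per kb, followed by Egln1 at 23.6 ± 8.18, Hif1a at 20.2 ± 4.34 and Arnt at 18.9 ± 7.59, which overlapped. The ratio of Epas1 to Hif1a per length needs no scaling between libraries. It was 0.454, 0.274 and 0.270 in Cre negative HSC libraries, and 4.26, 3.10 and 2.43 in Cre negative macrophage libraries, which did not overlap. The counts of the sorts were made separately and no test was run between them. Identifiers overlapping Hif1a (Gm49321) and Epas1 (AC096777.1) on the same strand were counted in macrophages only, at 0 and at most 6.72 CPM.

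**Figure D1:**
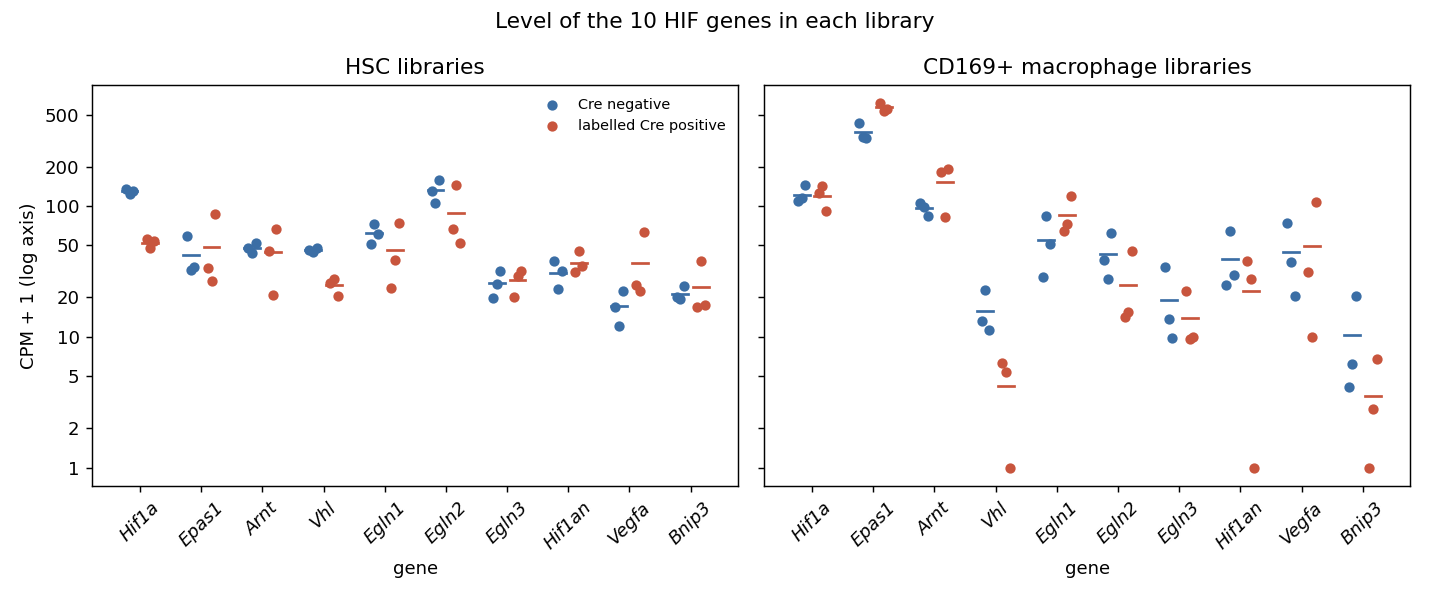
Level of each of the 10 genes in each library, as CPM + 1 on a log axis, for HSCs (left) and macrophages (right); points are libraries and bars are group means. Hif1a lies at 122 to 135 CPM in Cre negative HSCs and at 46.8 to 55.0 CPM in the labelled Cre positive ones, while in macrophages Epas1 stands above all other members and Vhl, Hif1an and Bnip3 have a Cre positive library at 0.

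The HSC comparison asks what differs in the HSC sort of embryos that carry Vav-Cre. In the libraries labelled Cre positive, the alpha subunit gene Hif1a and the ubiquitin ligase gene Vhl lay lower without overlap between groups, and the target Vegfa lay higher without overlap. The other 7 members overlapped between the groups. All 10 members passed the filter on low counts. In the edgeR fit 0 of 13962 genes passed after Benjamini-Hochberg adjustment (0%), of which 892 had an unadjusted p under 0.05 (6.39%), while DESeq2, run as an alternative, called 133. Over all genes tested, 9.33% lay lower and 6.37% higher without overlap. Because this contrast chose the members, nothing is read from their count against these shares. The median log2 fold change of the 10 was -0.02, beside -0.00 over all genes tested.

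Hif1a (chromosome 12, 73901375 to 73947530, plus strand, GRCm38) measured 135, 122 and 129 CPM in Cre negative HSC libraries, against 55.0, 46.8 and 52.8 CPM in the labelled Cre positive ones. Every library labelled Cre positive thus lay far below every Cre negative one, and the spread within each group was small. The fitted log2 fold change was -1.32 (SE 0.23), and it lay between -1.37 and -1.26 under the 12 alternatives tried. Reads numbered 7243 to 9466 and 2946 to 3873, so counting error was minor. Endothelial markers had lower means in 16 of 21 genes in the libraries labelled Cre positive, but their sums overlapped. Of the 21, 5 (Tek, Pecam1, Esam, Ehd3 and Oit3) lay lower without overlap, where 9.33% of all genes tested did, and 0 higher, where 6.37% did. Markers with a higher mean, 5 of the 21, included Stab2 (log2 fold change 0.30, SE 0.32) and Flt1 (0.14, SE 0.32), both with overlap. Hif1a per 1000 CPM of endothelial markers was 5.37, 7.56 and 10.9 in Cre negative libraries, against 4.46, 4.18 and 3.51 in the labelled Cre positive ones. That ratio contains the Hif1a values that chose the members, so it is a description and no separate evidence. Stellate and mesenchymal markers also had lower means, in 11 of 14 genes, with sums of 526 to 953 and 380 to 734 CPM, and macrophage markers had higher means in 13 of 20, with sums of 2196 to 2568 and 2045 to 3401 CPM. The part of these cells in the Hif1a difference was not tested. An antisense gene, Gm15283, overlaps Hif1a and was counted at 0 to 2.29 CPM in HSC libraries. Gm49321, a protein-coding gene on the same strand, overlaps Hif1a too and was counted only in macrophages, with 0 reads in each library.

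Epas1 (chromosome 17, 86753700 to 86833410, plus strand), the other alpha subunit gene, did not follow Hif1a in HSCs. It measured 58.1, 31.6 and 33.0 CPM in Cre negative libraries, against 32.6, 26.0 and 85.5 CPM in the labelled Cre positive ones. The groups overlapped, the highest value being that of Cre positive replicate 3. The log2 fold change of 0.23 (SE 0.53) turned to -0.49 without that library. As Hif1a was lower and Epas1 was not, the ratio of Epas1 to Hif1a per length was 0.625, 0.585 and 1.71 in the libraries labelled Cre positive, each above the Cre negative range of 0.270 to 0.454. The partner gene Arnt (chromosome 3, 95434388 to 95497240, plus strand) measured 46.9, 42.5 and 51.3 CPM in Cre negative libraries, against 43.9, 19.9 and 66.0 CPM in the labelled Cre positive ones, with overlap (log2 fold change -0.12, SE 0.46, and 0.23 without Cre positive replicate 2).

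Vhl (chromosome 6, 113623959 to 113631633, plus strand), whose product recognises hydroxylated alpha subunits, measured 45.2, 43.8 and 46.4 CPM in Cre negative HSC libraries, against 24.999, 26.8 and 19.4 CPM in the labelled Cre positive ones. The groups did not overlap, and the log2 fold change was -0.93 (SE 0.36), with a range of -1.03 to -0.80 over the 12 alternatives. Vhl was lower by less than Hif1a, so that the ratio of Vhl to Hif1a per length lay between 0.660 and 0.708 in Cre negative libraries and between 0.723 and 1.13 in the labelled Cre positive ones. The lowest of the latter was close to the Cre negative range.

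The prolyl hydroxylase genes varied between libraries labelled Cre positive. Egln1 (PHD2; chromosome 8, 124908587 to 124949324, minus strand) measured 49.9, 72.2 and 59.9 CPM in Cre negative, against 22.8, 37.7 and 73.8 CPM in labelled Cre positive HSC libraries. Egln2 (PHD1; chromosome 7, 27158658 to 27166802, minus strand) measured 130, 105 and 158 CPM and 65.7, 144 and 50.9 CPM in the same order. For both genes, 2 of the 3 libraries labelled Cre positive lay below all Cre negative ones and the other did not, but these were not the same libraries: replicate 3 was high for Egln1 and replicate 2 for Egln2. Log2 fold changes were -0.44 (SE 0.46) and -0.59 (SE 0.41). With 1 library labelled Cre positive left out, that of Egln1 lay between -1.01 (replicate 3 left out) and -0.13 (replicate 1), and that of Egln2 between -1.17 (replicate 2) and -0.32 (replicate 3). Egln3 (PHD3; chromosome 12, 54178981 to 54203860, minus strand), itself known as a HIF target, measured 18.8, 24.2 and 30.9 CPM and 19.2, 28.2 and 30.7 CPM, which nearly coincided (log2 fold change 0.08, SE 0.45, negative without Cre negative replicate 1 or Cre positive replicate 3). Hif1an (FIH; chromosome 19, 44562850 to 44576274, plus strand) measured 37.1, 22.2 and 30.8 CPM and 30.1, 44.0 and 33.8 CPM, also overlapping (0.26, SE 0.39).

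The 2 targets among the members differed. Vegfa (chromosome 17, 46016993 to 46032369, minus strand) measured 16.0, 11.01 and 21.2 CPM in Cre negative HSC libraries, against 23.8, 21.6 and 61.9 CPM in the labelled Cre positive ones. The groups did not overlap, but the gap between 21.2 and 21.6 CPM was narrow. The log2 fold change of 1.15 (SE 0.57) became 0.49 without Cre positive replicate 3. Bnip3 (chromosome 7, 138890836 to 138909519, minus strand) measured 19.1, 18.6 and 23.6 CPM and 15.8, 37.1 and 16.5 CPM, with overlap (0.18, SE 0.53, and -0.34 without Cre positive replicate 2). Thus no member other than Hif1a and Vhl was lower in all libraries labelled Cre positive.

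HIF binds DNA at a short core, so upstream bases are shown for Hif1a, one of the 3 members that did not overlap between the HSC groups, and for Bnip3 and Egln3, both known as HIF targets. The core was searched as ACGTG or GCGTG on both strands in the 250 bases before each RefSeq start (GRCm38.p6), where a CACGTG counts once on each strand. At least 1 match was found in 8 of the 11 windows of the 9 members that have one, against 38.6% of all 32851 windows, which were not matched for base composition. Arnt, Egln1, Egln2 and 1 of 2 Vegfa windows held matches too, and the windows of Vhl and Hif1an did not. In the stretches below, from GRCm38.p6 and read 5′ to 3′ along the gene's strand, capitals mark the core matches.
Hif1a, chr12:73907717-73907816, plus strand, 150 to 51 bases before the start: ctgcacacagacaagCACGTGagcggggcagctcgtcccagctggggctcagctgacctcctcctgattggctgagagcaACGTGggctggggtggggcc
Bnip3, chr7:138909522-138909638, minus strand, 132 to 16 bases before the start: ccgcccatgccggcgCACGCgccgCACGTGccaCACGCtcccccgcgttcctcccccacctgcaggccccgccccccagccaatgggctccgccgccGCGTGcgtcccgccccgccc
Egln3, chr12:54204084-54204118, minus strand, 244 to 210 bases before the start: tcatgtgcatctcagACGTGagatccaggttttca
No annotated exon lies under these bases, and the Hif1a stretch lies within the gene as GENCODE draws it, which begins at an earlier start. Bnip3 held 5 matches, the most of any member window, and Hif1a 3 and Egln3 1. A match is a description of the sequence: Bnip3 and Egln3 overlapped between the HSC groups, as given above.

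The macrophage comparison asks the same of CD169+ macrophages, and here the members were tested. None of the 10 passed in edgeR after Benjamini-Hochberg adjustment over all genes, where 0 of 17806 were called (0%), with 965 at an unadjusted p under 0.05 (5.42%) and 61 called by DESeq2. Without overlap between groups, Epas1 lay higher in Cre positive libraries, where 2.27% of all genes tested did, and Vhl lay lower, as did 11.8% of all genes tested. The other 8 members overlapped. All 10 passed the filter on low counts. Of the 10, 4 had a positive and 6 a negative log2 fold change, with a median of -0.26 beside -0.16 over all genes tested. On library totals that median over all genes was 0.05, and after upper-quartile scaling -0.00.

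Epas1 measured 434, 334 and 330 CPM in Cre negative, against 610, 536 and 555 CPM in Cre positive macrophage libraries, so that all 3 Cre positive libraries lay above. Its log2 fold change of 0.63 (SE 0.29) did not pass (edgeR adjusted p = 0.900), and it lay between 0.52 and 0.83 over the 12 alternatives, with a smallest adjusted p of 0.418. Endothelial markers had higher means in 17 of 21 genes in Cre positive libraries. Their sums were 22831, 13429 and 13608 CPM in Cre negative, against 18005, 23571 and 17135 CPM in Cre positive libraries, so that only Cre negative replicate 1 overlapped the Cre positive range. Epas1 per 1000 CPM of endothelial markers was 19.0, 24.9 and 24.2 in Cre negative and 33.9, 22.7 and 32.4 in Cre positive libraries, which overlapped. The part of endothelial RNA in the Epas1 difference was not tested. In HSC libraries, which were counted separately and not tested against macrophages, the same ratio was 1.97 to 5.69.

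**Figure D2:**
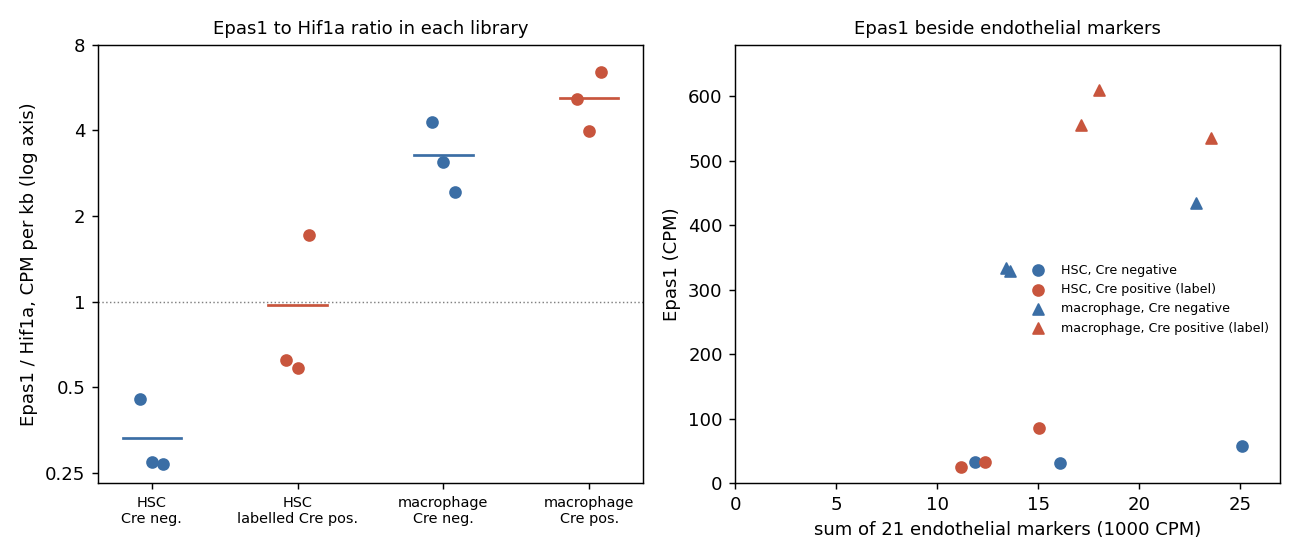
Left, ratio of Epas1 to Hif1a in CPM per kb on a log axis for each library, with group means as bars and a dotted line at equal levels; right, Epas1 in CPM against the summed CPM of 21 endothelial markers, circles for HSC and triangles for macrophage libraries. The ratio is 0.270 to 1.71 in HSC libraries and 2.43 to 6.42 in macrophage libraries. Epas1 is 330 to 610 CPM in macrophage libraries and 26.0 to 85.5 CPM in HSC libraries. The sorts were counted separately and not tested against each other.

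Hif1a, which separated the HSC groups, overlapped in macrophages. It measured 107, 113 and 143 CPM in Cre negative, against 124, 141 and 91.2 CPM in Cre positive libraries. The log2 fold change of -0.03 (SE 0.41) was close to 0 (edgeR adjusted p = 1.00 after rounding), and its sign turned under 6 of the 12 alternatives, with values from -0.19 to 0.18. In a joint fit of all 12 libraries the macrophage effect minus the HSC effect on Hif1a was 1.28 on the log2 scale (SE 0.54). That difference contains the HSC contrast that chose the gene and is given without a p. Of 20128 genes in the joint fit 14 were called as having a different Cre effect in the 2 sorts (0.0696%, Benjamini-Hochberg). Neither Hif1a nor any other member was among these 14.

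Vhl measured 12.3, 21.9 and 10.2 CPM in Cre negative, against 5.30, 4.39 and 0 CPM in Cre positive macrophage libraries, without overlap. These values rest on 15, 24 and 0 reads, and 3 reads in the library at 0 would be 0.513 CPM. The log2 fold change of -2.20 had an SE of 1.97 (edgeR adjusted p = 1.00 after rounding) and ranged from -3.17 to -1.66 over the alternatives. Vhl therefore had the lower values in the libraries labelled Cre positive of both sorts, and its fitted change was far less certain in macrophages than in HSCs.

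Arnt measured 105, 96.9 and 82.7 CPM in Cre negative, against 182, 81.5 and 191 CPM in Cre positive macrophage libraries. Replicates 1 and 3 of the Cre positive group lay above all Cre negative libraries and replicate 2 lay below them (log2 fold change 0.68, SE 0.44, edgeR adjusted p = 1.00 after rounding, and 0.43 without Cre positive replicate 3). The hydroxylase genes overlapped between groups. Egln1 measured 27.7, 83.4 and 50.6 CPM and 63.7, 72.4 and 118 CPM, Cre negative first (log2 fold change 0.65, SE 0.56, from 0.28 without Cre positive replicate 3 to 1.10 without Cre negative replicate 2). Egln2 measured 37.7, 26.8 and 61.3 CPM and 13.1, 14.4 and 44.1 CPM (-0.81, SE 0.85, from -1.66 without Cre positive replicate 3 to -0.44 without Cre negative replicate 3). Of the summed level of the 3 Egln genes per length, Egln1 made up 22.9% to 61.9% in Cre negative and 58.1% to 70.6% in Cre positive macrophage libraries, which overlapped. In HSC libraries Egln2 made up 56.3% to 69.0% in the Cre negative and 36.2% to 71.0% in the labelled Cre positive group.

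Egln3, Hif1an, Vegfa and Bnip3 overlapped between the macrophage groups too. Egln3 measured 33.2, 12.6 and 8.79 CPM in Cre negative, against 21.6, 8.59 and 8.89 CPM in Cre positive libraries, and the sign of its log2 fold change of -0.49 (SE 1.32) turned to 0.32 without Cre negative replicate 1. Hif1an measured 23.9, 63.6 and 28.5 CPM and 37.1, 26.5 and 0 CPM (log2 fold change -0.87, SE 1.26, from -1.61 without Cre positive replicate 1 to -0.31 without Cre negative replicate 2). Its Cre positive replicate 3 had 0 reads where the other 2 had 105 and 145. Vegfa measured 73.6, 36.4 and 19.5 CPM and 30.1, 8.95 and 107 CPM. Cre positive libraries lay on both sides of the Cre negative range, and the log2 fold change of 0.18 (SE 0.83) became -1.20 without Cre positive replicate 3. Bnip3 measured 3.13, 5.19 and 19.4 CPM and 0, 1.83 and 5.81 CPM, from 0, 10 and 34 reads in Cre positive libraries (log2 fold change -1.85, SE 2.20, from -3.34 without Cre positive replicate 3 to -0.71 without Cre negative replicate 3). At the depth of the Cre positive libraries, 3 reads correspond to 0.513 to 1.06 CPM, and lower values there rest on fewer reads than that.

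**Figure D3:**
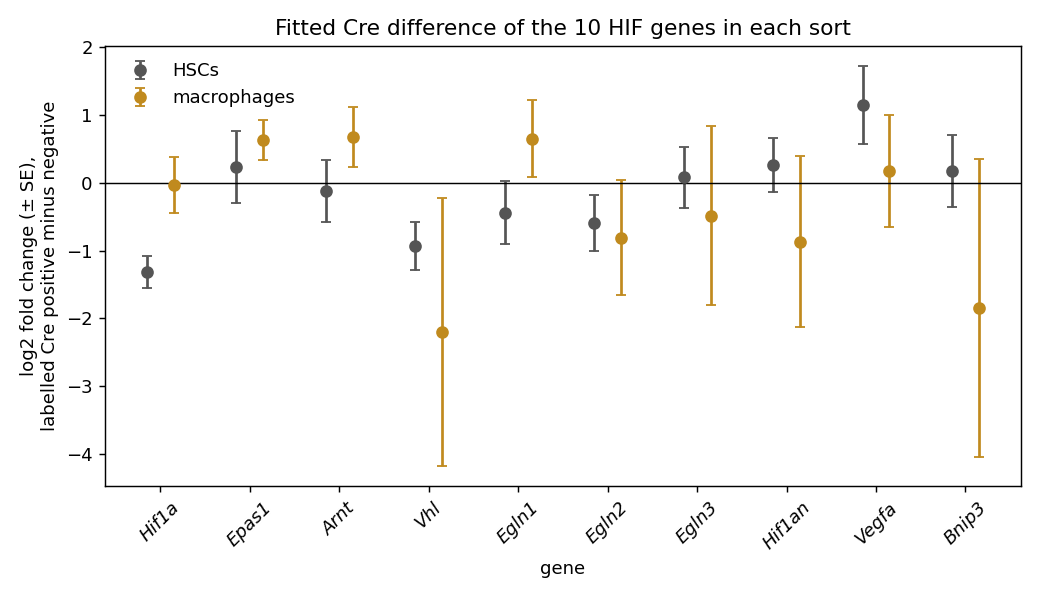
Fitted log2 fold change of each gene, Cre positive (by label) minus Cre negative, in HSCs (grey) and macrophages (ochre), with bars of 1 standard error. Hif1a is at -1.32 in HSCs and -0.03 in macrophages, Vhl is negative in both, and the bars of Vhl, Egln3, Hif1an and Bnip3 in macrophages are over 1 log2 unit on each side.

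Other genes of the HIF pathway were described from a list of 21 (subunits, ubiquitin ligase parts, coactivators and modifiers). In HSCs 20 were tested, 0 were called in either direction, and 15 had a higher and 5 a lower mean where Cre was labelled positive, with a median of 0.34 beside -0.00 over all genes. Without overlap, 2 lay higher, where 6.37% of all genes tested did, and 0 lower, where 9.33% did. Hif3a, another alpha subunit gene whose products can restrain HIF, measured 15.3, 16.2 and 20.4 CPM in Cre negative, against 32.2, 30.1 and 65.5 CPM in labelled Cre positive HSC libraries, without overlap (log2 fold change 1.30, SE 0.46, edgeR adjusted p = 0.723). The coactivator gene Ep300 measured 33.2, 34.8 and 34.2 CPM and 61.3, 62.2 and 41.8 CPM, also without overlap (0.69, SE 0.33, adjusted p = 0.807). Its relative Crebbp (0.62, SE 0.33) and Cited2, which competes with HIF for these coactivators (0.64, SE 0.58), overlapped. Of the parts of the VHL ligase, Elob had a log2 fold change of 0.74 (SE 0.37), Eloc 0.36 (SE 0.32), Rbx1 0.24 (SE 0.20) and Cul2 -0.36 (SE 0.48), all with overlap. Siah2, a ligase that targets prolyl hydroxylases, measured 28.5, 29.5 and 39.8 CPM and 5.89, 21.5 and 30.7 CPM, which overlapped. Arnt2 had 0 reads in all HSC libraries.

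In macrophages all 21 were tested, 0 were called, and 6 had the higher and 15 the lower mean (median -0.22 beside -0.16). Without overlap, 2 lay lower, where 11.8% of all genes tested did, and 0 higher, where 2.27% did. Rbx1 measured 18.0, 54.3 and 53.2 CPM in Cre negative, against 13.4, 17.2 and 13.2 CPM in Cre positive libraries, without overlap (log2 fold change -1.52, SE 0.92, edgeR adjusted p = 1.00 after rounding). Siah2, at 2.22, 1.01 and 14.46 CPM in Cre negative libraries, had 0 reads in all Cre positive ones, in which 3 reads correspond to 0.513 to 1.06 CPM. Hif3a measured 18.4, 17.7 and 16.5 CPM and 4.24, 52.1 and 22.1 CPM, so that Cre positive libraries lay on both sides. Elob measured 28.1, 44.97 and 34.8 CPM and 0.354, 66.3 and 0 CPM, likewise on both sides. Crebbp, Ep300, Cul2, Eloc, Cited2 and Arnt2 overlapped between groups, with log2 fold changes of 0.11, -0.01, 0.52, 0.13, 0.63 and -0.23.

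Target genes of HIF were described from a list of 40, most of them for glucose transport, glycolysis, iron handling and vascular signals. In HSCs their summed level was 8357, 7813 and 8004 CPM in Cre negative, against 8115, 7724 and 8550 CPM in libraries labelled Cre positive. The groups overlapped although Hif1a did not. Ldha, Eno1, Gapdh and Aldoa weighed most in this sum, with Cre negative means of 1580, 1277, 1064 and 925 CPM. The sum therefore says little of the less abundant targets. Of 37 tested, 0 were called, 16 had the higher and 21 the lower mean, and the median log2 fold change was -0.06 beside -0.00 over all genes. Without overlap, 2 lay lower, where 9.33% of all genes tested did, and 1 higher, where 6.37% did. The most abundant of the named targets, the lactate dehydrogenase gene Ldha, measured 1776, 1466 and 1497 CPM and 1450, 1602 and 1449 CPM. The glucose transporter gene Slc2a1 (log2 fold change -0.05, SE 0.31), Slc2a3 (-0.51, SE 0.73), the glycolytic gene Pgk1 (0.28, SE 0.25) and the pyruvate dehydrogenase kinase gene Pdk1 (-0.48, SE 0.40) overlapped too. Adm, which encodes the vasodilator adrenomedullin, lay lower without overlap, at 39.2, 26.0 and 48.1 CPM and 25.7, 10.9 and 10.5 CPM (log2 fold change -1.27, SE 0.54, edgeR adjusted p = 0.777). The gap between the groups was narrow. The histone demethylase gene Kdm3a also lay lower without overlap, at 86.4, 86.8 and 107 CPM and 67.2, 69.7 and 34.6 CPM (-0.71, SE 0.34, adjusted p = 0.807). Ankrd37, named after its values were seen, lay higher without overlap, at 3.41, 3.48 and 2.86 CPM and 12.3, 8.28 and 14.98 CPM (1.87, SE 1.04, adjusted p = 0.856). Ndrg1 (-0.78, SE 0.44) and Ddit4 (-0.66, SE 1.20) had lower means with overlap, and Epo, the hormone gene, had 0 reads.

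**Figure D4:**
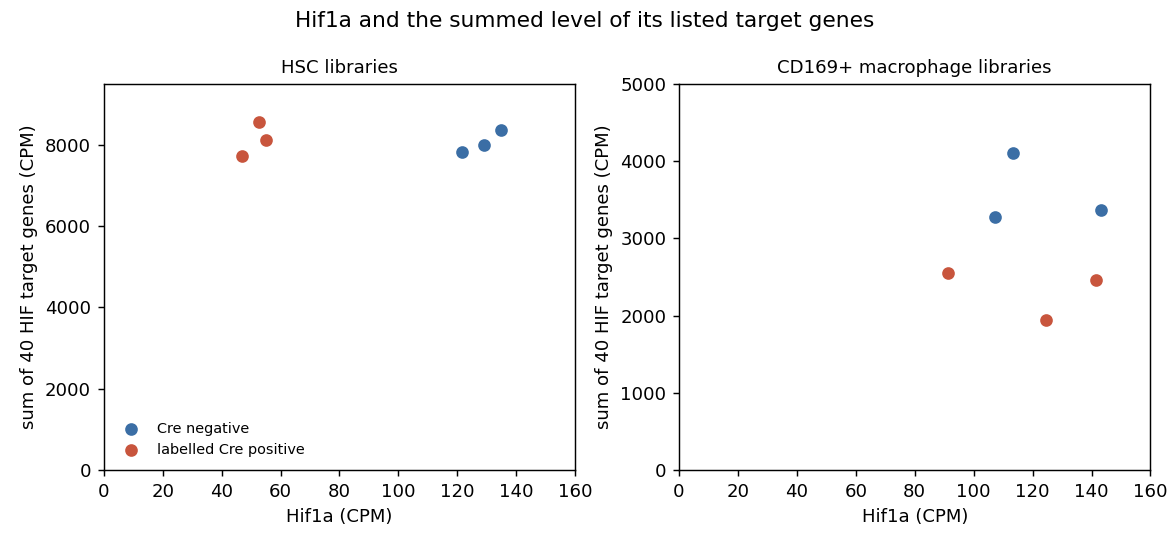
Hif1a in CPM against the summed CPM of 40 HIF target genes for each library of HSCs (left) and macrophages (right). In HSCs Hif1a separates the groups while target sums overlap at 7724 to 8550 CPM, and in macrophages Hif1a overlaps while the target sum is 3273 to 4109 CPM in Cre negative, against 1947 to 2547 CPM in Cre positive libraries.

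In macrophages the pattern was the other way round. Hif1a overlapped, and the target sum was 3273, 4109 and 3362 CPM in Cre negative, against 1947, 2458 and 2547 CPM in Cre positive libraries, and this held on library totals and with upper-quartile scaling too. Of 35 targets tested, 0 were called, 11 had the higher and 24 the lower mean, and the median was -0.53 beside -0.16 over all genes. With upper-quartile scaling it was -0.38 beside -0.00. Of the 35, 6 lay lower without overlap, where 11.8% of all genes tested did, and 2 lay higher, where 2.27% did. The 6 lower ones were Aldoa, Slc16a3, Bnip3l, Mxi1, Bhlhe40 and Trf, all but Bnip3l named after their values were seen. Among them the glycolytic gene Aldoa measured 272, 361 and 254 CPM and 160, 249 and 66.7 CPM. Bhlhe40 measured 52.3, 4.86 and 30.4 CPM and 1.77, 0 and 0.855 CPM. The 2 higher ones, named after their values were seen, were the glycolytic regulator gene Pfkfb3, at 45.4, 46.6 and 56.4 CPM and 139, 89.0 and 64.1 CPM, and the oxidoreductase gene Ero1l, at 14.1, 20.01 and 7.61 CPM and 30.8, 35.3 and 24.97 CPM. The largest parts of the difference, chosen after their values were seen, were Trf, the transferrin gene of hepatocytes, at 1233, 215 and 209 CPM and 123, 63.2 and 154 CPM, and the heme oxygenase gene Hmox1, abundant in macrophages, at 167, 1671 and 1173 CPM and 377, 460 and 1112 CPM. Without Trf and Hmox1 the sum was 1874, 2222 and 1981 CPM in Cre negative, against 1448, 1935 and 1281 CPM in Cre positive libraries, which overlapped. Over the same libraries 20 of 20 macrophage markers had the lower mean in the Cre positive group, with sums of 838 to 5950 and 975 to 2643 CPM and none at 0 throughout. Hepatoblast markers had the lower mean in 12 of 15, with sums of 395 to 3409 and 449 to 699.5 CPM. Stellate and mesenchymal markers had the lower mean in 14 of 14, with sums of 332 to 1788 and 121 to 188.5 CPM, and 7 of the 13 tested lay lower without overlap. HSC markers had the higher mean in 9 of 15, with sums of 836 to 1070.5 and 1092 to 1185 CPM. The part of these cells, and of depth, in the target sum was not tested. Slc2a1, Slc2a3, Ldha, Pgk1, Pdk1 and Ndrg1 had log2 fold changes of -0.37, -0.78, -0.53, -0.52, -1.36 and -0.35, and Adm, Ddit4 and Kdm3a of 0.32, 1.20 and 0.21, all with overlap. Epo had 0 CPM in the Cre positive libraries and at most 0.408 CPM in the Cre negative ones.

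Vegfa acts through receptors that endothelial cells carry. Its relatives and receptors (9 genes, 8 tested in each sort) had 0 calls in either sort. In HSCs 2 had the higher and 6 the lower mean, and the receptor genes Kdr, Flt1 and Nrp1 had log2 fold changes of -0.26 (SE 0.39), 0.14 (SE 0.32) and -0.10 (SE 0.25). In macrophages 5 had the higher and 3 the lower mean. Without overlap, 1 lay higher, where 2.27% of all genes tested did, and 1 lower, where 11.8% did. Nrp1 measured 452.3, 338 and 365 CPM in Cre negative, against 535, 699.7 and 452.7 CPM in Cre positive macrophage libraries, which barely failed to overlap (0.55, SE 0.31, edgeR adjusted p = 1.00 after rounding). Kdr (0.45, SE 0.30) and Flt1 (0.43, SE 0.36) overlapped, and endothelial markers had the higher mean in 17 of 21, as given above. Vegfb, a relative of Vegfa, went the other way: it measured 42.5, 57.3 and 47.3 CPM in Cre negative, against 1.41, 2.92 and 5.47 CPM in Cre positive macrophage libraries. Each Cre positive library was far below each Cre negative one, with a log2 fold change of -3.89 (SE 1.07, edgeR unadjusted p = 0.00201, adjusted p = 0.773), which did not pass. The Cre positive values rest on 4, 16 and 32 reads, against 746, 1248 and 1044 in the deeper Cre negative libraries. In HSCs Vegfb overlapped, at 46.9, 63.5 and 29.5 CPM and 64.6, 73.4 and 44.2 CPM.

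Bnip3 shares its role in mitophagy with Bnip3l and Fundc1, and 10 genes of mitophagy and of the BCL2 partners of Bnip3 were listed. In HSCs 9 were tested and 0 called, 5 with the higher and 4 with the lower mean (median 0.00). Bnip3l, at 187 ± 17.4 CPM in Cre negative HSCs, against 206 ± 43.6 CPM in the labelled Cre positive ones (SD, n = 3), and Fundc1, at 48.1 ± 12.7 and 56.8 ± 12.6 CPM, overlapped. In macrophages 10 were tested and 0 called, 3 with the higher and 7 with the lower mean (median -0.57 beside -0.16). Of the 10, 3 (Bnip3l, Bcl2l1 and Map1lc3a) lay lower without overlap, where 11.8% of all genes tested did. Bnip3l measured 70.5, 66.2 and 62.6 CPM in Cre negative, against 50.2, 36.2 and 51.8 CPM in Cre positive macrophage libraries, without overlap (log2 fold change -0.53, SE 0.57, edgeR adjusted p = 1.00 after rounding). Fundc1 measured 14.6, 75.1 and 62.9 CPM and 9.90, 21.7 and 6.50 CPM, with overlap (-1.998, SE 0.93, edgeR adjusted p = 0.901).

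The genes most like Hif1a in pattern were found by Pearson's r of log2(CPM + 1) over all 12 libraries after the mean of each sort was subtracted, among 9706 named genes whose mean reached 5 CPM in both sorts. The libraries share their sort and group, and the pattern of Hif1a contains the HSC contrast that chose the members. The values are therefore a description and no separate evidence. Zkscan8, a zinc finger gene, came first (r = 0.940), followed by Pphln1 (0.921), Pecam1 (0.905), the coatomer gene Copb2 (0.899) and Card6 (0.885). Pphln1 measured 52.3, 53.0 and 57.5 CPM in Cre negative HSC libraries, against 32.6, 20.2 and 27.02 CPM in the labelled Cre positive ones. Pecam1, an adhesion gene of endothelium and blood cells and one of the endothelial markers, measured 357, 308 and 292 CPM and 176, 140 and 159 CPM. No other HIF member was near the top of this order: the closest, Vhl, had r = 0.422 and 1181 genes above it, and Vegfa had the most opposite pattern of the members (r = -0.58). In HSCs Vhl separated the groups in the same direction as Hif1a. Its r also includes Cre positive macrophage libraries with 15, 24 and 0 reads of Vhl, whose part in the rank was not tested.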

How the data were processed

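The authors deposited 1 table of unnormalized read counts for each sort. For HSCs, alignment with STAR 2.7.6a and counting with featureCounts of Subread 2.0.1 on GRCm38 are named per the submitters' processing notes; for macrophages only mm10 is named, with the aligner and counter not given in the sources used here. How strand and multiple mapping were treated is not given in these sources, so reads of overlapping or antisense genes could not be told apart. Libraries were made with SMART-Seq v4, per the labels' protocols. Every column was mapped to a sample.

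Each table was analysed on its own with edgeR 4.0.16 in R 4.3.3: filterByExpr by group, TMM scaling, robust quasi-likelihood fits of Cre positive minus Cre negative, and Benjamini-Hochberg adjusted p under 0.05 over all genes. CPM uses TMM-scaled library sizes, and standard errors come from the fold change and the F statistic. The difference between sorts was an interaction over 32210 shared identifiers. Exon lengths, positions and names came from GENCODE M21, and upstream sequences from RefSeq (GRCm38.p6), which gave 9 of 10 members. The scripts were tested on simulated data.

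The members and lists were chosen with earlier results of these data known. The named genes are the 10 members, fixed genes of each list whatever their values, and the 5 most like Hif1a. Added after the data were seen were the genes overlapping members, Trf, Hmox1, Eno1, Gapdh, Ankrd37, Pfkfb3 and Ero1l. So were Aldoa, Slc16a3, Mxi1, Bhlhe40, Bcl2l1, Map1lc3a and the endothelial markers Tek, Esam, Ehd3 and Oit3. The marker lists covered endothelial, macrophage, HSC, hepatoblast, erythroid and stellate cells. In the HSC sort, Cre negative first, HSC markers summed to between 1212 and 3003 CPM and between 1820 and 2434 CPM, and erythroid markers to between 1097 and 1918 CPM and between 1481 and 1968 CPM. Alternatives were upper-quartile scaling, library totals, DESeq2 1.42.0, no filter, the replicate number as a block, thinning to equal depth, and leaving out each library. The count floor of 3 reads and counting errors do not cover amplification.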

Additional observations from a re-analysis of the deposited data

How the results depend on the processing

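In HSCs the count of called genes was 0 under each alternative run except DESeq2, which called 133. With each library left out in turn the HSC count stayed at 0. In macrophages DESeq2 called 61 genes, the fit without a filter 21, the fit with the replicate block 13, the thinned counts 1, and the fits without 1 library 1 to 34, the highest without Cre positive replicate 3, then 5 without Cre negative replicate 1 and 4 without Cre positive replicate 1; none of the 10 members was called in macrophages under any of them. Same-numbered libraries did not deviate together (correlations of -0.03 to 0.01 in HSCs and -0.02 to 0.03 in macrophages). Whether they share more than a number cannot be told from this, because the spread of single libraries can hide a shared part. The joint fit of both sorts called 14 genes, and 96 with the replicate block. In macrophages the sign of Hif1a turned with upper-quartile scaling (0.13), library totals (0.18), DESeq2 (0.17) and thinning (0.046), and with libraries left out it ranged from -0.19 to 0.10. Vegfa turned with the replicate block (-0.46) and thinning (-0.019), and ranged from -1.20 to 0.86 with libraries left out. Egln3 ranged from -1.11 to 0.32. The cause was not tested. The medians of the pathway lists were recomputed under the same settings, chosen after the data were seen; that of the HIF targets in macrophages ranged from -1.06 to -0.33. It was -0.53 beside -0.16 over all genes as reported, -0.72 beside -1.15 without a filter, -0.68 beside -0.72 with the replicate block, -0.45 beside -0.38 without Cre positive replicate 1 and -0.45 beside -0.43 without Cre positive replicate 3.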
